A study of Mus musculus with 18 samples.

Results

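Transcripts of 7 matrix metalloproteinase genes (Mmp2, Mmp3, Mmp8, Mmp9, Mmp12, Mmp13 and Mmp14) and 3 tissue inhibitor genes (Timp1, Timp2 and Timp3) were followed cell by cell in stretched mouse back skin. The 10 genes were taken by symbol from the 32285 genes of each expression matrix, and each symbol occurred once in all 10 matrices. The skin came from mice that had all been operated on: the back skin was cut near the tail and a path was opened under it up to the neck. In the expanded arm a hydrogel expander was left under the skin near the neck, whereas the control arm was stitched closed without one, so that control skin carries the wound and the path but no expander. Skin was taken on day 1, 2 or 4, and living (DAPI-negative) cells were sorted and sequenced with the 10x Genomics 3′ kit. Each arm had 5 mRNA libraries: day 1 in sequencing rounds 1 and 2, day 2 in rounds 1 and 2, and day 4 in round 1. All control mice of a round shared 1 tube and all expanded mice of that round another, so a library is a pool of mice. Strain, age and sex are not given in the sources used here.

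Matrix metalloproteinases are zinc-dependent enzymes, made as inactive precursors, that cut the proteins between cells. Mmp8 and Mmp13 are collagenases, which open the intact collagen helix. Mmp2 and Mmp9 are gelatinases, which cut unwound collagen and basement membrane collagen. Mmp3 is a stromelysin, which cuts many matrix proteins and can activate other precursors, Mmp12 is the elastase of macrophages, and Mmp14 is anchored in the cell membrane, where it activates the Mmp2 precursor together with Timp2. The Timp proteins bind the active site of these enzymes. In skin wounds the family is known for letting keratinocytes, vessels and leukocytes move through matrix and for remodelling the dermis.

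Mmp3, Mmp8, Mmp12 and Mmp13 lie within 296.0 kb of chromosome 9 (positions 7272514 to 7568485, GRCm38), all on the plus strand, while Mmp2 lies on chromosome 8, Mmp9 on 2, Mmp14 on 14, Timp1 on X, Timp2 on 11 and Timp3 on 10. RefSeq promoter windows (GRCm38.p6; 250 bases before to 50 after a gene start) were matched for 8 of the 10 genes, 9 windows in all, and not for Mmp2 or Mmp9. The letters TGANTCA, the core of the site bound by AP-1 (Fos and Jun) and the same on both strands, stood in 1 window each of Mmp3, Mmp12 and Mmp13, and in 2565 of all 32851 windows of 300 bases, 7.81%. The windows of Mmp8, Mmp14, Timp1, Timp2 and Timp3, and the other window of Mmp12, did not hold these letters, which says nothing about other positions. The 250 bases upstream of the start are shown for the 3 cluster genes with a match, because the collagenase, stromelysin and elastase share this feature and their neighbourhood. They lie at chr9:7445572-7445821 (Mmp3), chr9:7347124-7347373 (Mmp12) and chr9:7272264-7272513 (Mmp13), read 5′ to 3′ on the plus strand, with the matched letters in capitals. The Mmp12 stretch belongs to window 2 of 2, which lies inside the annotated gene (positions 7344381 to 7369499). The Mmp12 window around the annotated start (chr9:7344147-7344446) did not hold the letters. A match describes letters and shows no binding.
Mmp3: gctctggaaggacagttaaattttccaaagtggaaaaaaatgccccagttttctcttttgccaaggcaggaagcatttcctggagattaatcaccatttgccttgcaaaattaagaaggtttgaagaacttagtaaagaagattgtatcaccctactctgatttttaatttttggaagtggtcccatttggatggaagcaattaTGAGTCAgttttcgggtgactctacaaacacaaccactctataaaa
Mmp12: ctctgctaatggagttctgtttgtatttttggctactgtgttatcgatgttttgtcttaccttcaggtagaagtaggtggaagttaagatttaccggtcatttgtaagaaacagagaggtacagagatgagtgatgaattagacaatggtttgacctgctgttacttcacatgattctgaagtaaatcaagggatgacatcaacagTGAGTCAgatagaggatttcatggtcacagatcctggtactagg
Mmp13: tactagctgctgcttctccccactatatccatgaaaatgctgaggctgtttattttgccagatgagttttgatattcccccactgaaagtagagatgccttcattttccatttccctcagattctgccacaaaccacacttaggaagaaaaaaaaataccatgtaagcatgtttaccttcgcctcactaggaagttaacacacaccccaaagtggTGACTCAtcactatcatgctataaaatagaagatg

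After filtering, 45488 cells remained, 28452 of the control arm and 17036 of the expanded arm. Library totals ran from 17726739 to 75470722 UMIs (unique molecular identifiers, 1 per captured transcript). Cells were clustered without any Mmp or Timp gene, and clusters were named "X-like" from marker lists, so that no class was made from the genes described here. The most numerous classes were fibroblast-like (13986 cells), macrophage or monocyte-like (4974) and basal keratinocyte-like (4334). Clusters that the rules left unnamed are called by number, among them cluster 1 (led by Lyz1, Ear2, Mgl2 and Tnip3), cluster 5 (Prok2, Tnfrsf11b and Coch) and cluster 14. In the marker score used for naming, clusters 5 and 14 stood highest for the fibroblast list (0.799 and 0.722). Cluster 1 stood highest for the macrophage or monocyte list (0.74), with the Langerhans list close (0.67). The makeup of 2 classes shifted between the arms: fibroblast-like cluster 0 held 5723 control and 284 expanded cells, and macrophage-like cells lay in clusters 9 and 10 in control skin (972 and 1429 cells) and mainly in cluster 7 in expanded skin (1616 cells). Neutrophil-like cells numbered 107 in the control and 1209 in the expanded arm. Levels are CPM, a gene's UMIs scaled to the usual CPM total of all UMIs, summed over the cells of a class in a library with at least 20 of them. They are compared between classes and arms of the same gene, never between genes, because a 3′ count has no length scale. Fold changes are scaled by TMM. Without it the median log2 fold change of all genes tested moved up by 0.21 in fibroblast-like cells, 0.10 in macrophage or monocyte-like cells and 0.18 over all cells. The share of calls that were higher in expanded skin moved from 47.2 to 73.6%, 45.3 to 56.4% and 47.1 to 68.7%. No called member changed direction.

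The 10 genes differed in the cell class where they were highest. In control skin Mmp2 was highest in fibroblast-like cells, 1308 ± 213 CPM (SD, n = 5), with cluster 5 next at 471 ± 146 CPM (SD, n = 5), and the ranges of the libraries did not meet. Mmp3 was also highest in fibroblast-like cells, at 909 ± 125 CPM (SD, n = 5), and at most 185 CPM on average in any other class measured. Mmp14 led in fibroblast-like cells (756 ± 97.8 CPM (SD, n = 5)), with cluster 5 (573 ± 73.3 CPM (SD, n = 5)) next, and the ranges did not meet. Timp2 was highest in fibroblast-like cells and cluster 14, whose ranges overlapped.

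Mmp12 was highest in cluster 1, at 783 ± 79.2 CPM (SD, n = 5), above every other class in control skin with no overlap of the ranges. Mmp13 and Mmp9 were highest in macrophage or monocyte-like cells (56.5 ± 31.9 CPM (SD, n = 5) and 14.4 ± 10.6 CPM (SD, n = 5)) among the classes with at least 3 control libraries. Timp3 was highest in Schwann-like cells, the glia of peripheral nerve (1984 ± 284 CPM (SD, n = 4)), followed by pericyte or smooth muscle-like cells (1312 ± 167 CPM (SD, n = 5)) and lymphatic endothelial-like cells (1200 ± 123 CPM (SD, n = 5)). The first of these stood apart from the second, and the latter pair overlapped. Timp1 was highest in cluster 5 (214 ± 214 CPM (SD, n = 5)), but its range overlapped those of the next classes.

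**Figure D1:**
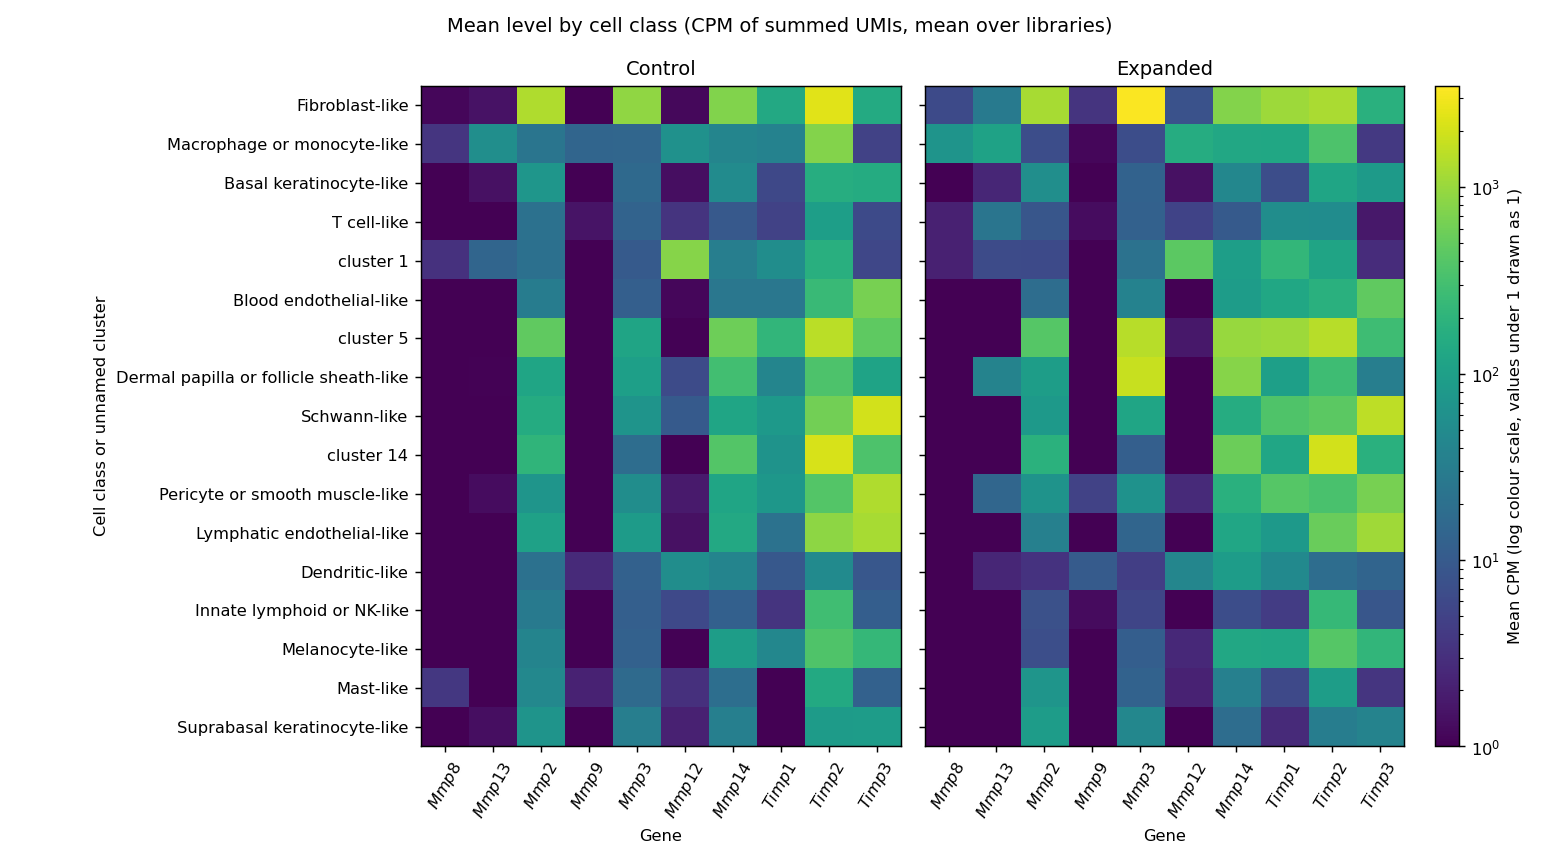
Mean CPM of each gene (columns) in each cell class or unnamed cluster (rows) with at least 3 libraries in both arms, control on the left and expanded on the right, on a logarithmic colour scale. Mmp2, Mmp3, Mmp14 and Timp2 are bright in fibroblast-like cells, Mmp12 in cluster 1 and Timp3 in Schwann-like, pericyte-like and endothelial-like rows, and the Timp1 column is brighter in most rows of the expanded panel.

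The cells that held a gene's transcripts changed with expansion, as a share of all of its UMIs. Fibroblast-like cells held 86.9% of the Mmp14 UMIs of the control libraries and 52.1% in the expanded libraries, where cluster 5 held a further 19.3%. Timp2 moved from 84.1% to 50% in fibroblast-like cells. Mmp12 passed from cluster 1 (88.2% in control, 43% in expanded) to macrophage or monocyte-like cells (5.21% and 50.9%). Mmp9 passed from macrophage or monocyte-like cells, 59.8% of 326 control UMIs, to neutrophil-like cells, 84.2% of 1532 expanded UMIs. Of the Mmp8 UMIs of expanded skin, 69.4% lay in macrophage or monocyte-like and 23.5% in neutrophil-like cells, whereas the 348 control UMIs were spread over fibroblast-like cells (44.5%), cluster 1 (27.3%) and macrophage or monocyte-like cells (17.5%). Cluster 5 scored highest for the fibroblast list and cluster 1 for the macrophage or monocyte list, so moves between them and those classes need not be between lineages. These shares pool the libraries of an arm, follow the numbers of cells sorted, and carry no test.

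**Figure D2:**
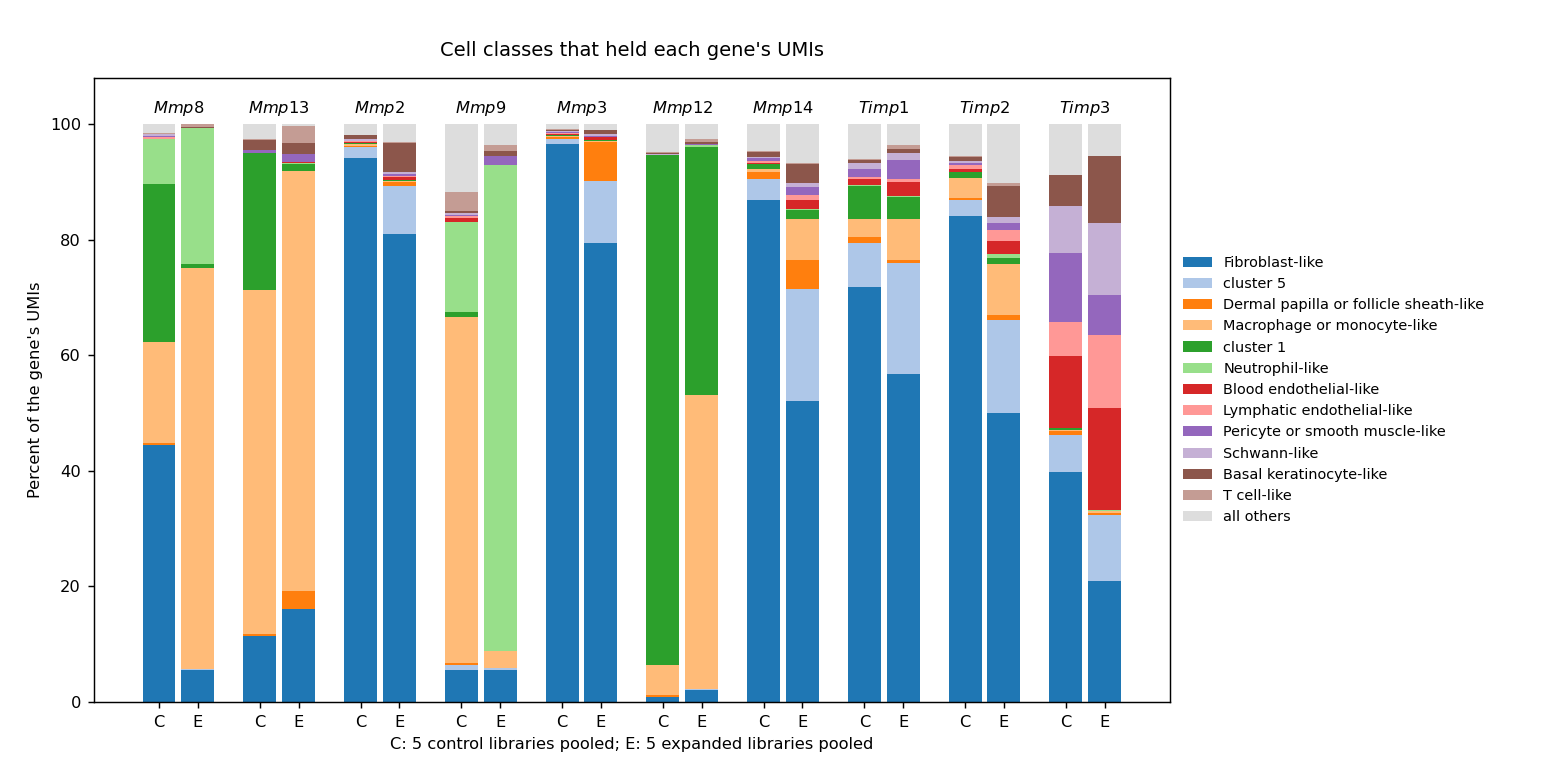
Stacked bars of the percent of each gene's UMIs found in each cell class, with the 5 control libraries pooled (C) and the 5 expanded libraries pooled (E). Mmp9 changes from a mostly macrophage-like bar to a mostly neutrophil-like bar (84.2%), and the fibroblast-like part of the Mmp14 and Timp2 bars is shorter in E than in C.

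The collagenase Mmp8 rose in macrophage-like and fibroblast-like cells of expanded skin, and Mmp13 in fibroblast-like cells. In macrophage or monocyte-like cells Mmp8 measured 4.39, 4.1, 1.42, 6.76 and 1.05 CPM in the control libraries and 64.8, 51.3, 63.4, 102 and 63 CPM in the expanded libraries, in the order day 1 rounds 1 and 2, day 2 rounds 1 and 2, and day 4, which is the order of all such lists. Every expanded library lay above every control library, and the rise was 17.3-fold (log2 fold change 4.11, SE 0.33, adjusted p = 0.000274, edgeR quasi-likelihood test, Benjamini-Hochberg over all genes tested). Of the 10 genes, 6 passed an adjusted p of 0.05 in this class, as did 26.4% of all genes tested there. Shares of cells with a UMI are given here as the unweighted mean of the libraries' percentages. After thinning each cell to 1000 UMIs, a mean of 0.287% of the control and 6.15% of the expanded cells had an Mmp8 UMI (1.32% and 28.4% unthinned), against 0.0484% and 0.26% of T cell-like cells, which served as the background class. The median UMIs per cell of a library ran from 4115 to 14800 in the macrophage class and from 2985 to 6365 in T cell-like cells.

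Neutrophil markers were measured beside this rise, since neutrophils are a known source of Mmp8. The summed level of 10 neutrophil transcripts in macrophage or monocyte-like cells was 39.7 to 117 CPM in control and 358 to 1965 CPM in expanded libraries, with 3 to 5 and 0 to 4 of the 10 genes at 0. In the expanded libraries this was 0.332 to 1.34% of the level in neutrophil-like cells, whereas Mmp8 stood at 14.7 to 71% of its neutrophil level, above the list in 5 of 5 libraries. Within macrophage-like clusters, pooled Mmp8 was 36 CPM in control and 87.2 CPM in expanded cells of cluster 7 (led by Chil3, Arg1 and Ms4a4c). It was 1.77 and 21 CPM in cluster 9 (Pf4, Trem2), and 0.542 and 1.13 CPM in cluster 10 (Cd209f, Cd209g, Ccl8).

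In neutrophil-like cells themselves only 2 control libraries had 20 cells, so no test was made at that size. Mmp8 there was 256 and 57.2 CPM (day 1 round 2 and day 2 round 2) in control and 441, 149.8, 175, 143 and 170.4 CPM in expanded libraries, and the ranges overlapped. The day 1 round 1 value rests on 20 cells and 43 UMIs, 24 of them in 1 cell. With units of at least 10 cells, 3 control against 5 expanded libraries, Mmp8 did not pass (log2 fold change 1.06, SE 0.486, adjusted p = 0.662 by edgeR). In fibroblast-like cells Mmp8 was far scarcer but higher in expanded skin, with 0.997, 1.07, 0.452, 1.3 and 1.92 CPM in the control libraries and 1.05, 2.86, 5.34, 11.6 and 10.2 CPM in the expanded libraries. The rise (log2 fold change 1.83, SE 0.48, adjusted p = 0.0152) was lost when either day 4 library was left out (adjusted p up to 0.0589).

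Mmp13 rose in fibroblast-like cells, from very low levels and in very few cells. It measured 0.694, 3.16, 1.36, 0.827 and 1.34 CPM in the control libraries and 1.96, 9.11, 43.5, 5.62 and 78.6 CPM in the expanded libraries, higher in the expanded library of 5 of 5 pairs although the ranges overlapped (log2 fold change 3.41, SE 0.86, adjusted p = 0.012). Of the 10 genes, 9 passed the filter on low counts in this class and 6 of them were called, against 31.4% of all genes. The 1% of cells with the most Mmp13 UMIs held 80.3 to 92.9% of them in the expanded libraries other than day 1 round 1. In that library and in each control library the share was 100%, which is fixed because fewer than 1% of cells had any. On day 4 a single expanded cell held 285 of the 395 UMIs. Thinned to 1000 UMIs, a mean over libraries of 0.0789% of control and 1.06% of expanded fibroblast-like cells had an Mmp13 UMI (0.304% and 3.01% unthinned), against 0% and 0.961% of T cell-like cells. The 0 of 1425 control T cell-like cells allows a share of up to 0.21%, for counting error only. The expanded share is close to that of the background class.

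The class with most Mmp13 gave no call. Macrophage or monocyte-like cells held 41.1, 104, 20.6, 47 and 69.8 CPM in the control libraries and 7.66, 104, 138, 121 and 174 CPM in the expanded libraries, with overlapping ranges and the lowest value of all in the expanded library of day 1 round 1 (log2 fold change 0.82, SE 0.61, adjusted p = 0.348). The difference passed without that library (adjusted p = 0.0197) or without the filter on low counts (0.000274), where the log2 fold change was much the same (0.86). With hashed mice as units the day 2 difference did pass: 7 control mice ran from 0 to 114 CPM with a median of 21.1, and 7 expanded mice from 41.4 to 170.4 CPM with a median of 115 (log2 fold change 1.87, adjusted p = 0.0091 by edgeR). On day 4 it did not: 4 control mice ran from 27.9 to 86.9 CPM and 4 expanded mice from 32.9 to 279 CPM (log2 fold change 1.16, adjusted p = 0.184 by edgeR). In dermal papilla or follicle sheath-like cells, where 3 control and 4 expanded libraries had 20 cells, Mmp13 was called higher (log2 fold change 5.39, SE 1.03, adjusted p = 0.0178), from 1.6, 0.906 and 0.66 CPM in control and 0, 78, 5.93 and 70.3 CPM in expanded libraries. The control libraries of this class held 4 Mmp13 UMIs in all, and 94 of the 112 UMIs of the day 4 expanded library lay in 1 cell. The call was lost without the control library of day 2 round 2 or either day 4 library or with DESeq2 or thinned cells (adjusted p up to 0.141).

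The gelatinases moved in opposite directions over all cells. Mmp9 rose from 0.806, 1.95, 1.74, 1.15 and 1.32 to 2.47, 5.7, 10.7, 15.2 and 11.8 CPM of all cells, with no overlap between the arms (log2 fold change 2.36, SE 0.42, adjusted p = 0.00522). Yet within macrophage or monocyte-like cells it fell: 6.3, 31.6, 17, 6.45 and 10.5 CPM in the control libraries and 0, 0, 1.74, 0.47 and 3.5 CPM in the expanded libraries, again with no overlap (log2 fold change -3.35, SE 0.74, adjusted p = 0.00879). In numbers of molecules, the expanded macrophage libraries held 0, 0, 25, 2 and 18 Mmp9 UMIs and the control libraries 33, 77, 24, 21 and 40. Thinned, a mean over libraries of 1.13% of control and 0.207% of expanded cells of the class had an Mmp9 UMI (4.79% and 0.56% unthinned), against 0.169% and 0.0637% of T cell-like cells. The control signal was highest in cluster 10, at 19.7 CPM pooled (cluster 9 2.3, cluster 7 0), and this cluster went from 1429 to 98 cells and held no Mmp9 UMI in expanded skin. In cluster 9 the pooled level was 4.96 CPM in expanded skin.

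Most Mmp9 UMIs of expanded skin lay in neutrophil-like cells. Their level was 241 and 206 CPM in the 2 control libraries with 20 cells (day 1 round 2 and day 2 round 2) and 861, 460.4, 247, 392 and 321 CPM in the 5 expanded libraries, all of them above both control values. With units of at least 10 cells, 3 control against 5 expanded libraries, the log2 fold change was 1.32 (SE 0.35, adjusted p = 0.387 by edgeR), and 0.0318% of the genes tested in that fit were called. The class grew from 107 to 1209 cells beside the rise over all cells, and the difference in its own level did not pass the test. Fewer cells of a type and less RNA per cell cannot be told apart in any level taken over all cells.

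Mmp2 fell over all cells, from 1114, 691, 617, 526 and 561 to 611, 279, 229, 164 and 183 CPM, lower in the expanded library of 5 of 5 pairs (log2 fold change -1.55, SE 0.26, adjusted p = 0.00438). The share of fibroblast-like cells fell at the same time from 40.7 to 14.2% of sorted cells. Within fibroblast-like cells it measured 1633, 1349, 1116, 1327 and 1115 CPM in the control libraries and 1581, 1317, 1086, 955 and 986 CPM in the expanded libraries. All 5 pairs went down, but the fall was small (log2 fold change -0.37, SE 0.12, adjusted p = 0.0434) and depended on the scaling: without TMM it was -0.16 (adjusted p = 0.381). It was also lost without the filter on low counts, with thinned cells, without the day 1 round 1 pair and without any of 8 single libraries, with adjusted p up to 0.381 over these alternatives. By cluster, pooled Mmp2 was higher in expanded than in control cells in clusters 0 (1696 and 1490 CPM), 2 (1533 and 1480), 8 (603.1 and 513.5) and 29 (1613 and 1075). It was lower in clusters 13 (954.9 and 1457 CPM), 18 (1102 and 1398) and 20 (613.6 and 810.4). These pooled values carry no test.

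Of 17 classes tested, Mmp2 fell in 6 and rose in none. Over these classes 0.122 to 16.6% of all genes were called lower and 0.0445 to 14.8% higher, which holds for the counts of classes given for each gene. Apart from the fibroblast-like class these were macrophage or monocyte-like (-2.12, adjusted p = 0.00463), dendritic-like (-3.03, 0.0204), lymphatic endothelial-like (-2.17, 0.0127), innate lymphoid or NK-like (-1.96, 0.0471) and melanocyte-like cells (-2.46, 0.0395), as log2 fold changes. Mmp2 was the only one of 2 genes tested that was called in the innate lymphoid class and of 5 in the melanocyte-like class, against 0.661% and 1.54% of all genes. In mast-like cells neither of the 2 genes tested was called by edgeR or DESeq2 (0 had an unadjusted p under 0.05), against 0.949% of all genes. In those classes Mmp2 was low and fibroblast transcripts moved with it. In macrophage or monocyte-like cells 10 fibroblast transcripts together went from 668 to 5468 CPM in control to 273 to 818 CPM in expanded libraries, with 0 to 1 of them at 0 in each arm. Mmp2 there stood at 0.166 to 1.34% of its fibroblast level in the expanded libraries, against 0.633 to 1.24% for the list, and was above the list in 1 of 5 libraries. The part of fibroblast RNA in these falls was not tested. The call held under each alternative in the macrophage class and was lost without either day 4 library or with thinned cells in the lymphatic class (adjusted p up to 0.0638). In dendritic-like cells it was lost without any of 6 libraries (adjusted p up to 0.0731). In innate lymphoid cells it was lost without any of 8 libraries, without TMM, with DESeq2, with a mitochondrial limit of 5% or at Leiden resolution 2 (up to 0.164). In melanocyte-like cells it was lost with the sequencing round as a block (adjusted p = 0.0589), with DESeq2, with a mitochondrial limit of 5% or without any of 5 libraries (up to 0.313).

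Mmp3, the stromelysin, rose in fibroblast-like cells and in cluster 5. The fibroblast-like level was 1057, 847, 1014, 752 and 876 CPM in the control libraries and 1226, 3647, 3741, 3729 and 4337 CPM in the expanded libraries. All expanded libraries lay above all control libraries, and the rise was 3.07-fold (log2 fold change 1.62, SE 0.30, adjusted p = 0.00261). The expanded library of day 1 round 1 was the lowest of its arm at 1226 CPM, and the others ran from 3647 to 4337 CPM.

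The rise was seen in sums of UMIs more than in the number of cells with the transcript. Thinned to 1000 UMIs, a mean over libraries of 36.4% of control and 38.4% of expanded fibroblast-like cells had an Mmp3 UMI (66.9% and 57.9% unthinned), against 1.16% and 0.758% of T cell-like cells. The 1% of cells with the most Mmp3 held 10.0 to 21.6% of the UMIs of a control library and 14.4 to 38.7% of an expanded one. By cluster, pooled Mmp3 was 930.1 CPM in control and 1209 CPM in expanded cells of cluster 0. It was 1454 and 2934 CPM in cluster 2, and 1263 and 5263 CPM in cluster 18, which is led by Tnc, Cxcl5 and Ccl19. The pooled value was higher in expanded skin in each of the 7 fibroblast-like clusters. Cluster 18 made up 508 of the 11576 control and 555 of the 2410 expanded fibroblast-like cells.

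Cluster 5 showed a larger rise from a lower base. Mmp3 there was 101, 93.3, 61.4, 159 and 163 CPM in the control libraries and 183, 1545, 1075, 2167 and 2322 CPM in the expanded libraries, with no overlap (log2 fold change 3.50, SE 0.46, adjusted p = 0.000583). In cluster 5, 4 of 6 genes tested were called, against 9.97% of all genes. In dermal papilla or follicle sheath-like cells Mmp3 was 134, 116 and 50.2 CPM in control and 5.94, 1463, 1154 and 4452 CPM in expanded libraries. It did not pass (log2 fold change 3.25, SE 1.32, adjusted p = 0.222) but did without the day 1 round 2 control or expanded library (adjusted p = 0.00471 and 0.00289). It also passed without the filter on low counts (1.98e-23), where the log2 fold change was no larger (3.18). That setting raised the number of all genes called in the class from 295 to 671. In lymphatic endothelial-like cells Mmp3 fell (log2 fold change -3.12, SE 0.45, adjusted p = 0.00078), from 122, 132, 19.1, 85.1 and 83.2 to 54.2, 6.5, 5.08, 2.36 and 4.6 CPM. Fibroblast transcripts in that class went from 1556 to 17636 CPM to 841 to 12778 CPM, and in the expanded libraries Mmp3 was below that list, relative to fibroblast-like cells, in 5 of 5. Over all cells, where the share of fibroblast-like cells fell, Mmp3 did not pass the test (log2 fold change 0.34, SE 0.31, adjusted p = 0.458).

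**Figure D3:**
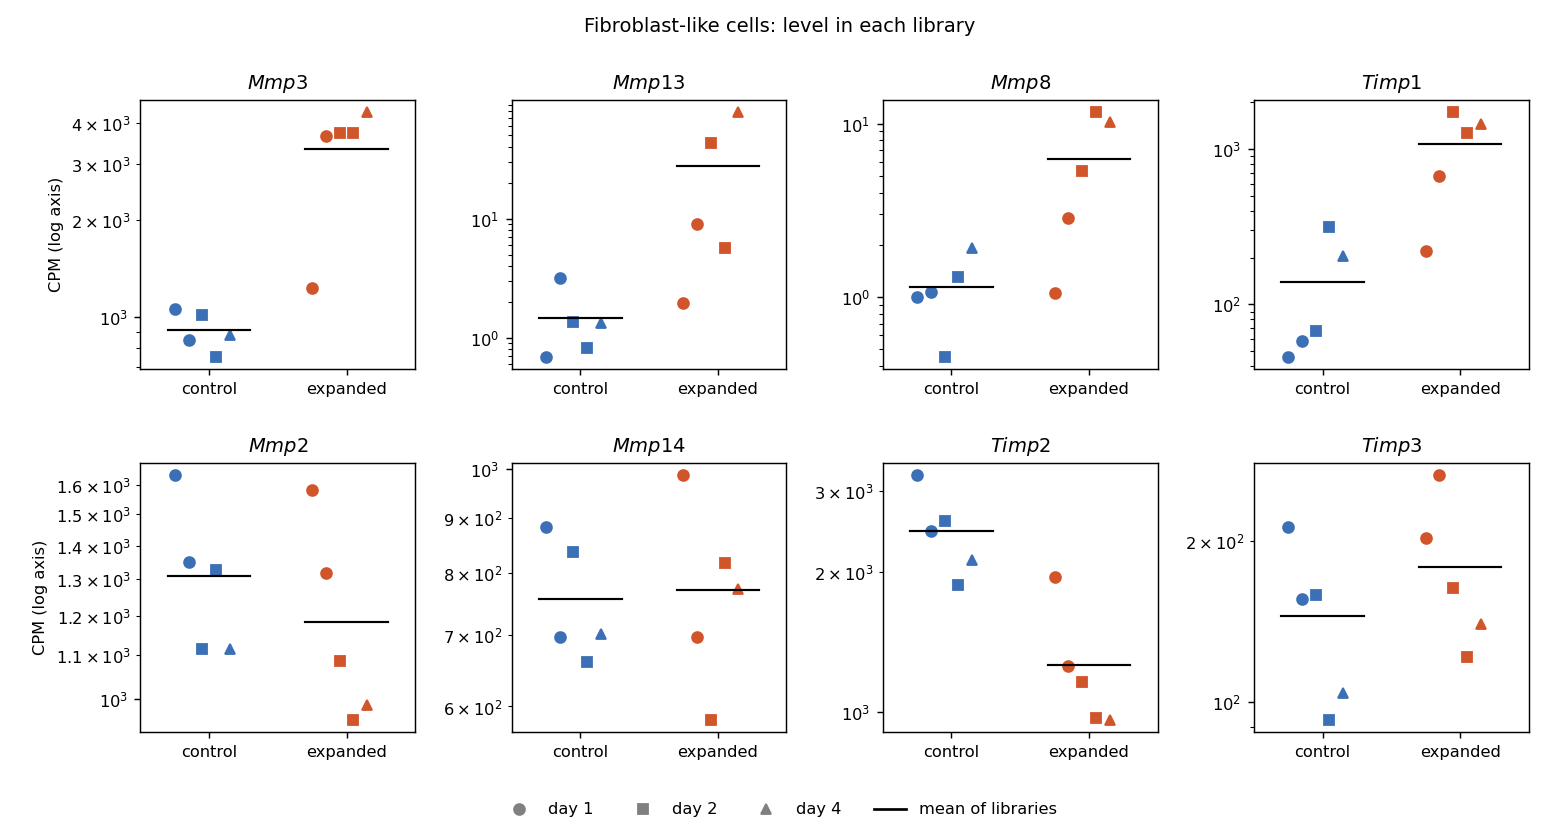
CPM per library in fibroblast-like cells for the genes measured there, on a logarithmic axis, with control in blue, expanded in red, the day as the symbol and a bar at the mean of the libraries. The 5 expanded Mmp3 points lie above all control points, whereas the Mmp14 and Timp3 points of both arms overlap.

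Mmp12, the macrophage elastase, fell in the cluster where it was highest. In cluster 1 it measured 781, 762, 690.4, 771 and 909 CPM in the control libraries and 307, 289, 415, 820.4 and 402 CPM in the expanded libraries. The expanded library was lower in 4 of 5 pairs, and the exception was day 2 round 2 (log2 fold change -1.10, SE 0.25, adjusted p = 0.0157). The call was lost without either day 4 library (adjusted p up to 0.0514). Thinned, a mean over libraries of 32% of control and 18.9% of expanded cluster 1 cells had an Mmp12 UMI (56.2% and 44.8% unthinned), against 0.243% and 0.139% of T cell-like cells. In cluster 1, 4 of 8 genes tested were called, against 16.8% of all genes.

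Macrophage or monocyte-like cells gave no Mmp12 call, with 32.8, 22.5, 17.7, 106 and 136 CPM in the control libraries and 5.31, 77.5, 118, 102 and 480 CPM in the expanded libraries (log2 fold change 0.89, SE 0.55, adjusted p = 0.256). Their ranges overlapped, and 2470 of the UMIs came from the day 4 expanded library, where 89 of 484 cells had any. The difference passed without the day 1 round 1 expanded library (adjusted p = 0.0328) or without the filter on low counts (5.48e-05). In the latter the log2 fold change was much the same (0.91). In fibroblast-like cells Mmp12 was 1.86, 0.593, 0.565, 1.83 and 1.16 CPM in the control libraries and 0.14, 0, 0.281, 0.401 and 38.8 CPM in the expanded libraries, lower in 4 of 5 pairs and high on day 4 alone (log2 fold change -0.52, SE 1.30, adjusted p = 0.792). Without the day 4 control or expanded library the fall passed there (adjusted p = 0.0158 and 0.0196). Cluster 1 went from 2437 to 649 cells. Over all cells Mmp12 was lower in 5 of 5 pairs (log2 fold change -1.12, SE 0.34, adjusted p = 0.0378), a call lost without any of 8 libraries or with a mitochondrial limit of 5% (adjusted p up to 0.114).

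**Figure D4:**
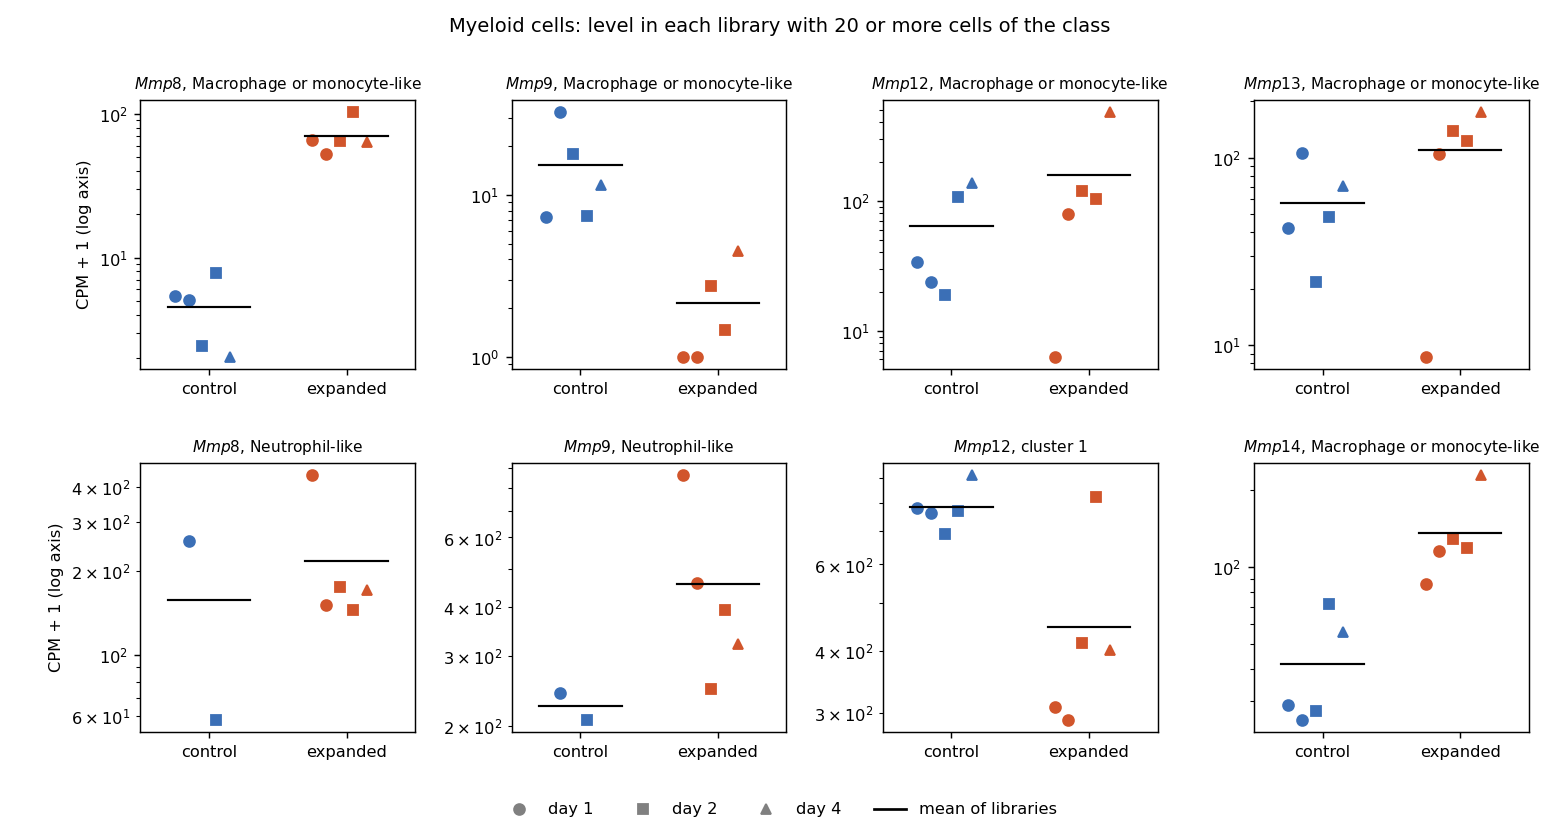
CPM + 1 per library on a logarithmic axis for Mmp8, Mmp9, Mmp12, Mmp13 and Mmp14 in macrophage or monocyte-like cells, for Mmp8 and Mmp9 in neutrophil-like cells and for Mmp12 in cluster 1, with control in blue, expanded in red, the day as the symbol and a bar at the mean. Mmp8 rises and Mmp9 falls in macrophage or monocyte-like cells without overlap of the arms.

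Mmp14, the membrane-anchored activator, was not called in the fibroblast-like class and rose in 6 of the 15 classes tested and fell in none with libraries as units. Fibroblast-like cells held 883, 696, 836, 660.3 and 702 CPM in the control libraries and 986, 697, 583, 817 and 773 CPM in the expanded libraries, with overlapping ranges (log2 fold change -0.19, SE 0.17, adjusted p = 0.41). In CPM 4 of 5 pairs were higher, so the sign of this difference depends on the scaling. With hashed mice as units Mmp14 was lower on day 2, where only mice of round 1 had enough cells to enter. It was 749 to 981 CPM in 3 control and 531 to 668 CPM in 3 expanded mice, with no overlap (log2 fold change -0.78, adjusted p = 0.00574 by edgeR). The day 2 round 2 libraries went the other way, from 660.3 to 817 CPM. Mmp14 was not called in mice on day 1 or 4 (adjusted p = 0.994 and 0.967). Macrophage or monocyte-like cells went from 27.7, 24.2, 26.2, 70.7 and 54.6 to 84.9, 114, 128, 118 and 228 CPM, with no overlap (log2 fold change 1.62, SE 0.23, adjusted p = 0.00136). Blood endothelial-like cells went from 11.7, 27.6, 18.2, 38.7 and 30.2 to 51.1, 56.8, 129.8, 119 and 103 CPM, again with no overlap (log2 fold change 1.59, SE 0.21, adjusted p = 0.00157), and 4 of 6 genes tested were called in that class against 11.2% of all genes.

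In cluster 5 Mmp14 was 651, 568, 454, 594 and 601 CPM in the control libraries and 944, 819, 901, 1246 and 1050 CPM in the expanded libraries, and the arms did not overlap (log2 fold change 0.73, SE 0.14, adjusted p = 0.0062). In dermal papilla or follicle sheath-like cells it was 335, 237 and 327 CPM in control and 612, 719, 1013 and 827 CPM in expanded libraries, also apart (log2 fold change 1.42, SE 0.23, adjusted p = 0.00774), in a class where 3 of 7 genes tested were called against 3.43% of all genes. That call was lost without the control library of day 2 round 2 (adjusted p = 0.0548). The rises in cluster 1 (log2 fold change 1.25, SE 0.32, adjusted p = 0.0249) and dendritic-like cells (log2 fold change 0.89, SE 0.20, adjusted p = 0.034, with 4 of 8 genes called against 4.32% of all) were lost without any of 6 and 8 libraries, the second also with thinned cells or at Leiden resolution 2, with adjusted p up to 0.0734 and 0.225. Over all cells Mmp14 was lower in 5 of 5 pairs (log2 fold change -0.75, SE 0.25, adjusted p = 0.053), and the fall passed with the sequencing round as a block (log2 fold change -0.74, adjusted p = 0.00957), with DESeq2, without the filter on low counts, with a mitochondrial limit of 5% and without any of 3 libraries.

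Timp1, an inhibitor of most of these enzymes, rose in 9 of the 14 classes tested and fell in none. In fibroblast-like cells it measured 46.1, 58.4, 67.9, 316 and 205 CPM in the control libraries and 220.5, 671, 1733, 1274 and 1463 CPM in the expanded libraries, higher in the expanded library of 5 of 5 pairs, although the ranges overlapped (log2 fold change 2.80, SE 0.38, adjusted p = 0.000665, a 6.97-fold rise). Thinned, a mean over libraries of 9.12% of control and 31.2% of expanded cells had a Timp1 UMI (38.7% and 71.6% unthinned), against 0.218% and 2.99% of T cell-like cells. Cluster 18 was the highest fibroblast-like cluster in both arms, at 635 CPM in control and 2009 CPM in expanded skin, and the pooled value was higher in expanded skin in each of the 7 clusters.

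The arms did not overlap in blood endothelial-like cells, with 22.6, 19.8, 19.8, 41.2 and 24.4 CPM in the control libraries and 82.3, 93.4, 247, 98.1 and 118 CPM in the expanded libraries (log2 fold change 2.16, SE 0.24, adjusted p = 0.000878). Relative to fibroblast-like cells, Timp1 there was above the fibroblast list in 3 of 5 expanded libraries (7.7 to 37.3% against 5.6 to 11.8%). The arms were also apart in macrophage or monocyte-like cells, with 52.1, 48, 18.4, 46.4 and 24.3 CPM in the control libraries and 134, 148, 160.1, 99.8 and 103 CPM in the expanded libraries (log2 fold change 1.70, SE 0.23, adjusted p = 0.00105). Pericyte or smooth muscle-like cells gave 58.4, 47.8, 83.8, 123 and 58.9 CPM in the control libraries and 156, 142, 1020.1, 389 and 350.4 CPM in the expanded libraries, apart as well (log2 fold change 2.15, SE 0.32, adjusted p = 0.00169), and 2 of 6 genes tested were called there against 15.7% of all genes.

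The other Timp1 rises were in cluster 1 (1.79, adjusted p = 0.00368), cluster 5 (2.38, 0.00462), lymphatic endothelial-like (1.64, 0.00286), dendritic-like (1.92, 0.0284) and T cell-like cells (3.04, 0.0353), as log2 fold changes. In lymphatic endothelial-like cells 4 of 6 genes tested were called against 10.3% of all genes, and in T cell-like cells 1 of 7 against 0.167%. The dendritic-like call was lost without any of 6 libraries and the T cell-like call without any of 8 (adjusted p up to 0.102 and 0.177), and the lymphatic call with thinned cells (0.0719). T cell-like cells are also the background class used here. The 10 fibroblast transcripts together were 1138 to 2471 CPM there in control and 137 to 757 CPM in expanded libraries. They were 773 to 4994 and 240.5 to 729 CPM in dendritic-like cells, and 1556 to 17636 and 841 to 12778 CPM in lymphatic endothelial-like cells. Timp1 rose in fibroblast-like cells too, and the part of fibroblast RNA in these rises was not tested. In basal keratinocyte-like cells Timp1 was low and not called (log2 fold change 0.32, SE 0.44, adjusted p = 0.669). In Schwann-like cells, where no gene of the 10 was called and 0.355% of all genes were, it passed with the round as a block (log2 fold change 1.29, adjusted p = 0.0168), with DESeq2 (0.0213) and without the filter on low counts (2.19e-10). Dropping that filter raised the number of all genes called in the class from 27 to 252.

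Timp2, which inhibits Mmp2 and also takes part in its activation, fell in 7 of the 17 classes tested and rose in none. Fibroblast-like cells held 3241, 2456, 2580.4, 1879 and 2126 CPM in the control libraries and 1954, 1258, 1162, 972 and 961 CPM in the expanded libraries, lower in 5 of 5 pairs (log2 fold change -1.21, SE 0.18, adjusted p = 0.001). The ranges met through the expanded library of day 1 round 1. Thinned, a mean over libraries of 82.3% of control and 60% of expanded cells had a Timp2 UMI (95.7% and 90.4% unthinned), against 8.36% and 4.32% of T cell-like cells. By cluster the pooled level was 2908 and 2483 CPM in cluster 0, 2609 and 1825 CPM in cluster 2, and 1868 and 942 CPM in cluster 18, control first.

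In macrophage or monocyte-like cells Timp2 fell as a class (log2 fold change -1.25, SE 0.35, adjusted p = 0.0256), from 1168, 759, 774, 453 and 696 to 725, 161, 335, 174 and 407 CPM, while the pooled values of clusters 9 and 10 were not lower. Pooled Timp2 was 1098 CPM in control and 1290 CPM in expanded cells of cluster 10, 503 and 720.5 CPM in cluster 9, and 171 and 153 CPM in cluster 7, the cluster that held most expanded cells. The class call was lost without any of 5 libraries (control day 1 round 1 and day 2 round 1, expanded day 2 round 2, and both of day 4), with adjusted p up to 0.0728. The other falls were in cluster 1 (-0.80, adjusted p = 0.0152), blood endothelial-like (-0.64, 0.017), lymphatic endothelial-like (-0.80, 0.0285), dendritic-like (-1.56, 0.0482) and suprabasal keratinocyte-like cells (-1.74, 0.0076), as log2 fold changes, and each was lost under at least 1 alternative. In suprabasal keratinocyte-like cells the 10 fibroblast transcripts summed to 2095 to 4466 CPM in control and 670 to 798 CPM in expanded libraries. Control first, they were 773 to 4994 and 240.5 to 729 CPM in dendritic-like cells, and 556 to 5250 and 240 to 572 CPM in cluster 1. They were 2686.5 to 6605 and 3184 to 5765.5 CPM in blood endothelial-like cells. The part of fibroblast RNA in these falls was not tested. In cluster 14, which matched the fibroblast-like level in control skin, Timp2 was not called (log2 fold change -0.12, SE 0.11, adjusted p = 0.635), nor was any other of the 10 genes, against 1.26% of all genes. With the round as a block Timp1 (adjusted p = 0.0336) and Mmp14 (0.0388) were called higher there.

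Timp3, which binds to the matrix around the cells that make it, fell in 6 of the 14 classes tested and rose in none. In pericyte or smooth muscle-like cells it measured 1417, 1553, 1202, 1159 and 1229 CPM in the control libraries and 1259, 1006, 291, 373 and 357 CPM in the expanded libraries, lower in 5 of 5 pairs with overlapping ranges (log2 fold change -1.36, SE 0.23, adjusted p = 0.00272). In basal keratinocyte-like cells it was 169.5, 165, 153, 104 and 156 CPM in the control libraries and 99.1, 82.6, 63.8, 61.7 and 119.9 CPM in the expanded libraries, lower in 5 of 5 pairs (log2 fold change -0.87, SE 0.14, adjusted p = 0.00491), and it was the only one of 8 genes tested that was called there, against 13.2% of all genes. Dermal papilla or follicle sheath-like cells gave 212, 54.4 and 74.6 CPM in control and 47.5, 27.2, 28.5 and 28.3 CPM in expanded libraries, which did not overlap (log2 fold change -1.41, SE 0.24, adjusted p = 0.0108), a call lost without the day 4 control library or at Leiden resolution 2 (adjusted p up to 0.0508).

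Timp3 also fell in suprabasal keratinocyte-like cells (log2 fold change -1.28, SE 0.30, adjusted p = 0.0282, with 2 of 5 genes called against 5.5% of all), blood endothelial-like cells (log2 fold change -0.59, SE 0.15, adjusted p = 0.024) and cluster 5 (log2 fold change -1.03, SE 0.28, adjusted p = 0.0308). The suprabasal fall was lost without any of 5 libraries, without TMM, with units of at least 10 cells or at Leiden resolution 2 (adjusted p up to 0.765). The blood endothelial fall was lost without any of 6 libraries or with thinned cells (up to 0.111), and that of cluster 5 without any of 6 libraries (up to 0.0937). In fibroblast-like cells Timp3 was 212, 156, 158, 92.6 and 104 CPM in the control libraries and 202, 265, 163, 121 and 139.6 CPM in the expanded libraries, with overlapping ranges (log2 fold change 0.07, SE 0.19, adjusted p = 0.803). Schwann-like cells, where Timp3 was highest, went from 2123, 2292, 1644 and 1878 to 1358, 1789, 1649.5, 1455 and 1425 CPM and did not pass (log2 fold change -0.43, SE 0.17, adjusted p = 0.423).

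**Figure D5:**
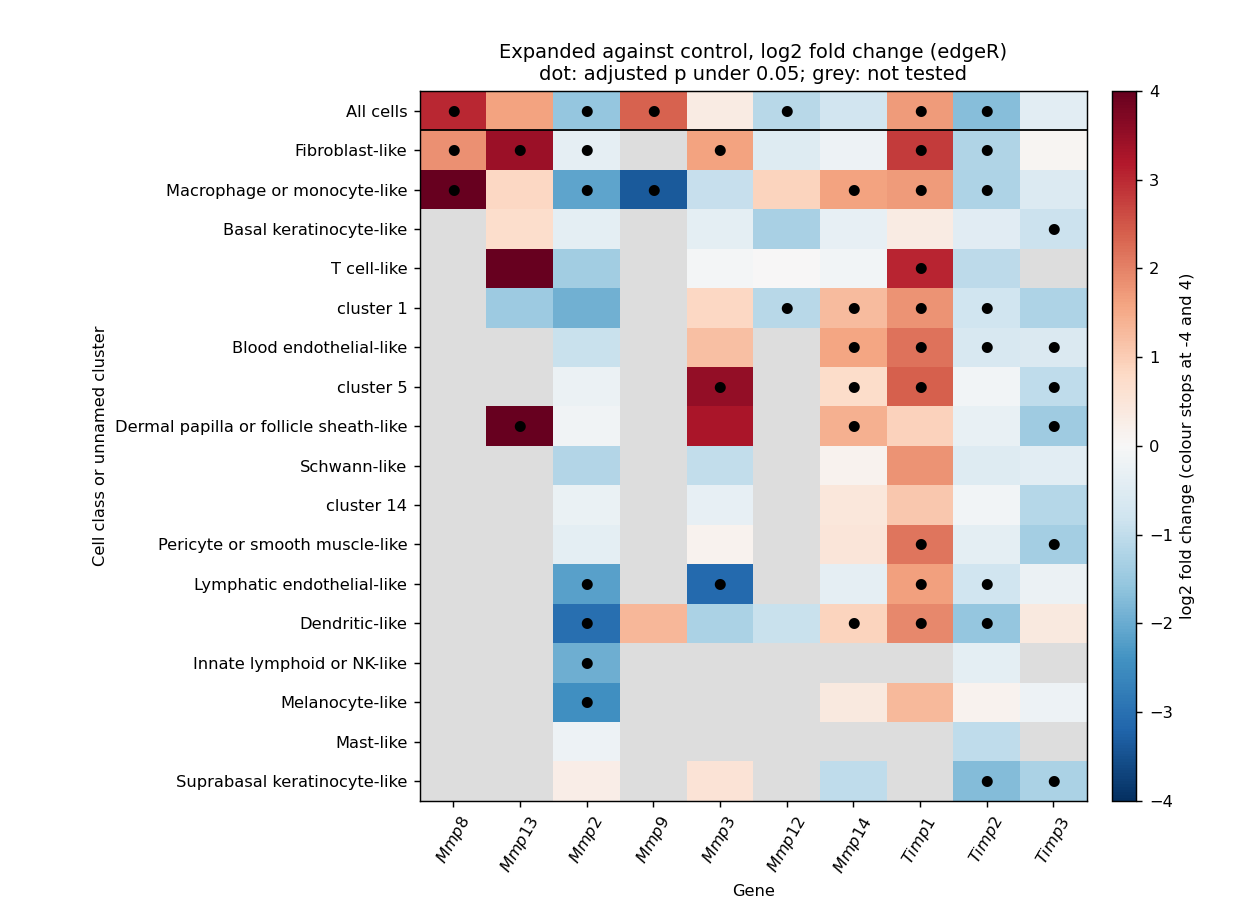
Log2 fold change, expanded over control, of each gene (columns) in each tested cell class and over all cells (rows), in colour from -4 to 4, with a dot where the adjusted p was under 0.05 and grey where not tested. Called values of Timp1 and Mmp14 are positive in each class, those of Timp2, Timp3 and Mmp2 are negative in each class, and Mmp3 is positive in fibroblast-like cells and cluster 5 and negative in lymphatic endothelial-like cells.

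Over all cells 6 of the 10 genes were called, against 25.2% of all genes. Mmp8 (3.03), Mmp9 (2.36) and Timp1 (1.71) rose, against 11.9% of all genes, and Mmp2 (-1.55), Timp2 (-1.70) and Mmp12 (-1.12) fell, against 13.3%, as log2 fold changes. The direction over all cells and within a class could differ. Mmp9 rose over all cells and fell in macrophage or monocyte-like cells, and Mmp14 was lower over all cells and higher in 6 classes.

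By day, day 1 and day 2 had 2 libraries an arm and day 4 had 1, whose spread is taken from the other days. In fibroblast-like cells the log2 fold change of Mmp3 was 1.06 on day 1, 1.98 on day 2 and 2.06 on day 4. That of Timp1 was 2.81, 2.92 and 2.59. That of Timp2 was -1.13, -1.17 and -1.40. On day 1 Timp1 alone was called (4.57% of all genes), on day 2 Mmp3, Mmp8, Mmp13 and Timp1 (3.94%), and on day 4 none of the 10 (0.112%), with 7 at an unadjusted p under 0.05. In macrophage or monocyte-like cells Mmp8 was called on day 1 (0.0606% of all genes), Mmp8 and Timp1 on day 2 (1.57%), and none of the 10 on day 4 (0.0173%), with 4 at an unadjusted p under 0.05. A test that the 3 days differ called none of the 10 in fibroblast-like or macrophage or monocyte-like cells by edgeR, nor any gene in either class, and 461 and 206 genes, 4 and 0 of the 10 among them, had an unadjusted p under 0.05. Of 112 such tests of the 10 genes over all classes 1 passed, Timp1 in melanocyte-like cells (adjusted p = 0.0162, against 0.505% of all genes).

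Hashtags gave single mice in 4 of the 5 rounds, with 14 mice an arm. Because all mice of an arm and round shared 1 reaction, their spread is that between mice and does not hold the reaction's. The fibroblast-like mice of day 2 were all of round 1, so their values rest on 1 reaction an arm. The day 2 round 2 libraries do not enter them. Fibroblast-like Mmp3 was 659 to 1811 CPM in 3 control and 2526 to 4811 CPM in 3 expanded mice (log2 fold change 1.56, adjusted p = 0.0121 by edgeR) on day 2. It was 614 to 1278 CPM in 4 control and 1794 to 7395 CPM in 4 expanded mice (log2 fold change 1.87, adjusted p = 0.00157 by edgeR) on day 4, and the arms did not overlap on either day. On those days 6 of 8 genes tested were called, against 30.3% and 28.5% of all genes, and on day 1 there were 2 of 8, against 6.08%. Timp1 was 40.2 to 108 CPM in 3 control and 984 to 1470 CPM in 3 expanded mice (log2 fold change 4.18, adjusted p = 2.84e-06 by edgeR) on day 2. It was 159 to 399.5 CPM in 4 control and 918 to 1679 CPM in 4 expanded mice (log2 fold change 2.16, adjusted p = 0.000138 by edgeR) on day 4. Macrophage or monocyte-like Mmp8 was 0 to 12.5 CPM in 7 control and 41.7 to 177 CPM in 7 expanded mice (log2 fold change 4.61, adjusted p = 5.43e-07 by edgeR) on day 2. It was 0 to 3.29 CPM in 4 control and 8.84 to 93.9 CPM in 4 expanded mice (log2 fold change 5.34, adjusted p = 4.81e-05 by edgeR) on day 4, apart on both. In that class 7 of 9 genes tested were called on day 2 and 5 on day 4, against 38.0% and 22.3% of all genes. Mmp9 fell on day 2 (0 to 27.7 CPM in 7 control and 0 to 3.2 CPM in 7 expanded mice (log2 fold change -3.50, adjusted p = 0.00153 by edgeR)) and did not pass on day 4 (1.77 to 27.9 CPM in 4 control and 0 to 8.71 CPM in 4 expanded mice (log2 fold change -1.75, adjusted p = 0.152 by edgeR)).

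The genes most like each member over 180 class-by-library units, by Pearson's r of log2(CPM + 1), were Dcn, Col1a2 and Fbln1 for Mmp2 (r = 0.869, 0.859 and 0.853), and Scara3, Prr16 and Loxl4 for Mmp3 (r = 0.717, 0.712 and 0.71). They were Ifitm6, Gm5150 and Cd177 for Mmp8 (r = 0.884, 0.877 and 0.876), and Retnlg, Stfa2l1 and Gm16556 for Mmp9 (r = 0.809, 0.803 and 0.801). For Mmp12 they were Slamf9, Dcstamp and Tnip3 (r = 0.862, 0.859 and 0.858) and for Mmp13 Ms4a8a, Fcgr1 and Msr1 (r = 0.664, 0.656 and 0.653). For Mmp14 they were Tcf4, Tmed1 and Adgra2 (r = 0.796, 0.793 and 0.793). For Timp1 they were Eva1b, Tram2 and Slc39a14 (r = 0.717, 0.713 and 0.705) and for Timp2 Prelp, Sntb2 and Ecm2 (r = 0.769, 0.759 and 0.752). For Timp3 they were Dab2ip, Hspg2 and Cav1 (r = 0.894, 0.89 and 0.875). The units of a library share its depth and its reaction, and these values describe likeness of pattern over cell classes only.

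The wider protease system was followed in 76 other genes in 6 lists. In fibroblast-like cells 55 of them were tested, 11 rose and 16 fell, against 14.8% and 16.6% of all genes. In macrophage or monocyte-like cells 40 were tested, 6 rose and 10 fell, against 12% and 14.5%. Of 8 other MMP genes tested in fibroblast-like cells, 2 rose and 3 fell. Mmp10, another stromelysin, rose from 0.13, 0, 0, 0.059 and 0 to 0.42, 3.64, 0.562, 8.03 and 26.5 CPM (adjusted p = 0.00306 by edgeR). The control libraries held 7 Mmp10 UMIs in all and the expanded libraries 191, so no fold is given. Mmp27 fell from 182, 96.1, 102, 105 and 156 to 69.2, 29.7, 34.9, 43 and 39 CPM (log2 fold change -1.79, adjusted p = 0.000824). Lcn2, a lipocalin that binds Mmp9, rose in fibroblast-like (log2 fold change 5.02, adjusted p = 0.000532) and macrophage or monocyte-like cells (log2 fold change 4.64, adjusted p = 0.000807). The rise was not particular to these classes. Lcn2 was also called higher in pericyte or smooth muscle-like and suprabasal keratinocyte-like cells. Their control libraries held 2 and 6 Lcn2 UMIs in all, so no fold is given. It was called higher too in dermal papilla or follicle sheath-like cells (3.76) and cluster 5 (5.01, from 13 control UMIs). Further rises were in blood endothelial-like (3.02), basal keratinocyte-like (1.43) and lymphatic endothelial-like cells (1.32) and over all cells (3.4), all as log2 fold changes. In blood endothelial-like cells Lcn2 went from 8.129, 11.95, 1.65, 10.78 and 5.735 to 136.2, 488.2, 3.557, 4.264 and 9.341 CPM. The rise there was large on day 1 alone, and the day 2 round 2 pair went down.

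Of 6 other inhibitors tested in fibroblast-like cells, 2 rose and 2 fell, and Serpine2, an inhibitor of thrombin and plasminogen activators, rose (log2 fold change 1.66, adjusted p = 0.00546). All 7 activators tested there gave 2 rises and no fall, and the 18 ADAM and ADAMTS genes gave 4 rises and 6 falls. In macrophage or monocyte-like cells Serpinb2, which inhibits urokinase, rose (log2 fold change 3.12, adjusted p = 0.00573), as did the neutrophil granule protease Prtn3 (log2 fold change 3.11, adjusted p = 0.00155) and the membrane protease Adam8 (log2 fold change 2.24, adjusted p = 0.000797). Of the 7 activators tested in that class 1 rose and 3 fell, and of the 12 ADAM and ADAMTS genes 1 rose and 3 fell.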

How the data were processed

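Single-cell mRNA was measured in 10 libraries, 5 control and 5 expanded. The files the authors deposited give whole UMI counts for each gene in each barcode, which per the submitters' processing notes come from Cell Ranger 6.1.2 and mm10. The counts are not normalized, and library totals ran from 17726739 to 75470722 UMIs. The 10 genes, the lists and the tests were chosen with earlier results of these data known. The rule was to name each of the 10 genes in each class where it was tested: the plot of fold changes shows all of these values, and the text describes those the results turn on. For each of them the 3 genes with the highest correlation are named, and for the other protease genes a fixed rule by size of change gave at most 4 per class, some of which are printed.

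Of 55174 barcodes, 47251 passed minimums of 200 genes and 500 UMIs and a limit of 10% for mitochondrial UMIs. Scrublet marked 0.0584 to 2.97% of cells per library as doublets, and cells with hashtags of 2 mice were also removed, 1763 cells in all. No pair of libraries shared more than 18 barcodes. Cells were clustered with scanpy 1.11.5 (2000 variable genes, 30 components, 15 neighbours, Leiden resolution 1) into 39 clusters, 32 of which could be named. Hashtags were called by HTODemux (Seurat 5.3.0, quantile 0.99), which gave 21140 cells to a mouse. The day 1 round 1 libraries carried no hashtags.

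Counts were summed per class and library (at least 20 cells) and tested with edgeR 4.0.16 (R 4.3.3): filterByExpr, TMM, the quasi-likelihood test, a term for day, and Benjamini-Hochberg adjustment over all genes tested in a class, with an adjusted p of 0.05 as the threshold. A class was tested with at least 3 libraries an arm, which gave 17 classes. Cells are not replicates, and p-values measure the spread between libraries, which are pools of mice. On counts simulated from the real means with 200 changed genes, this test recovered 59% of genes changed by 1 log2 unit and 91% of those changed by 2 in fibroblast-like cells (13514 genes), and 43% and 85% in macrophage or monocyte-like cells (10767 genes).

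The labels say that a replicate number marks a sequencing round, so control and expanded libraries of a round are paired. Their deviations from the mean of their own arm on that day correlated at 0.468 (day 1) and 0.272 (day 2) over all cells, 0.327 and 0.0802 in fibroblast-like cells, and 0.224 and 0.18 in macrophage or monocyte-like cells. Alternatives were the round as a replicate block, DESeq2 1.42.0, no TMM, no filter on low counts, each library left out, cells thinned to 2000 UMIs, a mitochondrial limit of 5%, Leiden resolution 2, units of at least 10 cells and another hashtag rule. Leaving out the day 1 round 1 pair was added after seeing the data.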

Additional observations from a re-analysis of the deposited data

Results flagged for a closer look

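A library or mouse stood far from the rest of its group (Dixon's test at the 95% level) in 15 of 83 groups of libraries and 4 of 48 groups of mice, where chance flags about 1 in 20. Mmp3 in fibroblast-like cells was lowest in the day 1 round 1 expanded library, at 1226 CPM, with the others at 3647 to 4337. The same pair of libraries was highest for Mmp2 in macrophage or monocyte-like cells, at 65.9 CPM in control (others 6.38 to 19.6) and 21.2 CPM in expanded (others 1.81 to 6.72). Over all cells that pair was also highest for Mmp2, at 1114 CPM in control (others 526 to 691) and 611 CPM in expanded (others 164 to 279.5), and the expanded library for Timp2, at 972 CPM (others 371 to 534).

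Mmp8 stood out in macrophage or monocyte-like cells of the day 2 round 2 expanded library, at 101.7 CPM (others 51.3 to 64.8), and in neutrophil-like cells of the day 1 round 1 expanded library, at 441 CPM (others 143 to 175), which held 20 such cells. Mmp12 was highest in macrophage or monocyte-like cells on day 4 in expanded skin, at 480.0 CPM (others 5.31 to 118), and in cluster 1 of the day 2 round 2 expanded library, at 820.4 CPM (others 289 to 415). Mmp13 was highest in fibroblast-like cells of the day 1 round 2 control library, at 3.16 CPM (others 0.694 to 1.36).

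Timp1 in blood endothelial-like cells was highest in the day 2 round 2 control library, at 41.2 CPM (others 19.8 to 24.4), and in the day 2 round 1 expanded library, at 247 CPM (others 82.3 to 118). That expanded library was also highest in pericyte or smooth muscle-like cells, at 1020 CPM (others 142 to 389). Timp3 in basal keratinocyte-like cells was lowest in the day 2 round 2 control library, at 103.5 CPM (others 153 to 169.5).

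Among single mice, fibroblast-like Mmp13 on day 4 was highest in 1 control mouse, at 1.92 CPM (others 0 to 0.298), and in 1 expanded mouse, at 135.7 CPM (others 1.05 to 9.71). Macrophage-like Mmp13 on day 2 reached 114.4 CPM in 1 control mouse (others 0 to 27.1), and macrophage-like Mmp9 on day 2 reached 3.20 CPM in 1 expanded mouse (others 0 to 0.904). Of 112 tests that the expansion effect differs between days, 1 passed: Timp1 in melanocyte-like cells, with log2 fold changes of 1.83 on day 1, 0.26 on day 2 and 4.15 on day 4 (adjusted p = 0.0162, edgeR).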

How the results depend on the processing

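Of the 49 calls of the 10 genes in a class or over all cells, 24 kept their sign and stayed past the threshold under each alternative in which they were tested, 25 were lost under at least 1, and 0 were reversed. Pairing the libraries by round (replicate block) lost 1 call, Mmp2 in melanocyte-like cells, and added 8 among 68 differences not called, so the number of genes called became 2 in basal keratinocyte-like cells (from 1), 2 in cluster 14 (from 0), 0 in melanocyte-like (from 1), 1 in Schwann-like (from 0) and 3 in T cell-like cells (from 1), and stayed at 6 in fibroblast-like and macrophage or monocyte-like cells. Without the filter on low counts the number was 2 in basal, 2 in cluster 14, 6 in dermal papilla (from 3), 2 in melanocyte-like, 4 in pericyte (from 2), 3 in Schwann-like and 4 in T cell-like cells. The number of all genes called rose in these classes too. It went from 1584 to 2304, 111 to 514, 295 to 671, 91 to 179, 1345 to 1686, 27 to 252 and 15 to 272, in the same order. Thinned cells gave 2 in lymphatic (from 4) and T cell-like cells. They gave 0 in dendritic-like (from 4), innate lymphoid (from 1), melanocyte-like and suprabasal cells (from 2), where 3, 1, 1 and 2 of the called genes no longer passed the filter on low counts and were not tested. DESeq2 gave 0 in innate lymphoid and melanocyte-like, 1 in Schwann-like and 2 in T cell-like cells. Without TMM 0 were called in innate lymphoid and 1 in suprabasal cells. A mitochondrial limit of 5% gave 0 in innate lymphoid and melanocyte-like cells, Leiden resolution 2 gave 0 in innate lymphoid and 2 in basal cells, and units of at least 10 cells gave 0 in suprabasal cells. In fibroblast-like mice of day 1 the number was 1 (from 2) with at least 10 cells per mouse.

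Leaving out 1 library at a time gave 5 to 6 called genes in fibroblast-like, 5 to 8 in macrophage or monocyte-like, 5 to 7 over all cells, 3 to 4 in cluster 5, 2 to 5 in blood endothelial-like and cluster 1, 2 to 4 in lymphatic, 1 to 4 in dermal papilla, 0 to 4 in dendritic-like, 0 to 2 in suprabasal, and 0 to 1 in innate lymphoid, melanocyte-like, Schwann-like, T cell-like cells and cluster 14. The number of all genes called ran from 2267 (thinned) to 4736 (replicate block) around 4250 in fibroblast-like cells, from 1653 (without the day 4 control library) to 3457 around 2843 in macrophage or monocyte-like cells, and from 2011 (without the day 4 expanded library) to 5564 (DESeq2) around 4437 over all cells. Mmp8, Mmp9 and Mmp13 rest on 3122, 1858 and 6638 UMIs in all libraries, which limits their precision in classes of few cells.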
